A study of Mus musculus with 10 samples.

Results

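Nuclear genes encode most subunits of the mitochondrial respiratory chain, and their transcripts were examined in bulk RNA sequencing of primary mouse macrophages taken from the peritoneal cavity. The genes follow a rule on names: symbols starting with Nduf followed by a, b, c, s or v and a digit, with Uqcr, with Cox4 to Cox8 and a letter, or with Atp5, together with Cyc1 and Cycs. Leaving out 8 names marked as pseudogenes, 87 of the 54532 genes in the table met this rule: 40 of complex I, 9 of complex III, 1 cytochrome c, 19 of complex IV and 18 of ATP synthase. The names left out include Ndufb1-ps, read at a mean of 58.1 normalized counts, and RefSeq gives this name as a synonym of the protein-coding gene Ndufb1, so an expressed complex I gene may be missing from the 40. The libraries formed 3 groups: aged mice with the genotype Trem1-/- (n = 3 libraries, replicates 1, 2 and 3), aged wild-type mice (n = 3, replicates 3, 4 and 6) and young wild-type mice (n = 4, replicates A, B, C and E). The series asks how loss of Trem1, an activating receptor of myeloid cells, alters gene expression during ageing. No strain, sex, age in weeks, treatment, allele or sorting step is given in the labels, no young Trem1-/- group is among the samples, and nothing says that the libraries of a group came from separate mice. The p-values below thus rest on the spread among these libraries, part of which may be technical.

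The respiratory chain passes electrons through protein complexes of the inner mitochondrial membrane and pumps protons across it. Complex I oxidises NADH, complex III passes electrons to the small carrier cytochrome c, complex IV reduces oxygen, and ATP synthase uses the proton gradient to make ATP. A few subunits of these complexes are encoded in mitochondrial DNA and the rest in the nucleus, and some of the nuclear-encoded subunits have tissue-specific isoforms. In macrophages, oxidative phosphorylation is known as the main energy route of resting and alternatively activated cells.

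Recovered depth was 2663744 to 5603498 reads per library. Trem1 itself was read in all 10 libraries, with 23.5, 106 and 13.8 normalized counts in the libraries labelled Trem1-/-, against 64.0, 15.3 and 26.95 in aged wild type and 8.005 to 24.4 in young wild type. These counts do not separate the labelled genotypes. A deletion that spares part of the transcript would not show in reads summed over the gene, so directions involving the libraries labelled Trem1-/- rest on their label. The aged wild-type libraries stood apart in composition. Summed markers of macrophages (8 genes, all with reads) came to 60746 to 80203 normalized counts in the libraries labelled Trem1-/-, 23342 to 36355 in aged wild type and 70622 to 78285 in young wild type. The 10 B cell markers summed to 3463 to 7353, 7910 to 13481 and 1694 to 3490 in the same order of groups, and the 5 erythroid markers to 17.2 to 57.7, 473 to 23658 and 9.30 to 751, the highest being aged wild-type replicate 4. The 6 markers of dividing cells summed to 634 to 934, 321 to 756 and 1399 to 3835. In bulk RNA, fewer cells of a type and less RNA per cell cannot be told apart, and the part of these shifts in the results below was not tested.

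Of the 87 genes, 73 averaged 10 or more normalized counts across all 10 libraries and were tested. The other 14 were read at a mean of 5.81 normalized counts or less, 10 of them under 1, and 4 of them are annotated as processed pseudogenes. Ndufs6b and Atp5o had no read. The annotation holds more than 1 gene of the name Atp5o, and the table carries a further row of that name with a suffix, at a mean of 58.6 normalized counts, which has no coordinates here.

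Levels differed widely between genes of the same complex. Per 1000 nt of median annotated transcript length, Cox6c of complex IV, a small structural subunit, was the most abundant tested member, at a mean of 864 normalized counts over all libraries. Atp5b and Atp5a1, which encode the catalytic beta subunit and the alpha subunit of the ATP synthase head, followed at 521 and 482, and Cox4i1, the largest nuclear-encoded subunit of complex IV, stood at 511. Ndufa6, an accessory subunit, led complex I at 459 per 1000 nt, while Ndufb2 was lowest at 5.79. The medians on this scale were 102 for complex I (36 genes), 190 for complex III (9 genes), 279 for complex IV (11 genes) and 284 for ATP synthase (15 genes with a length). Cycs, which encodes cytochrome c, stood at 29.7 per 1000 nt, with a length of 3123 nt and a mean of 92.8 normalized counts.

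**Figure D1:**
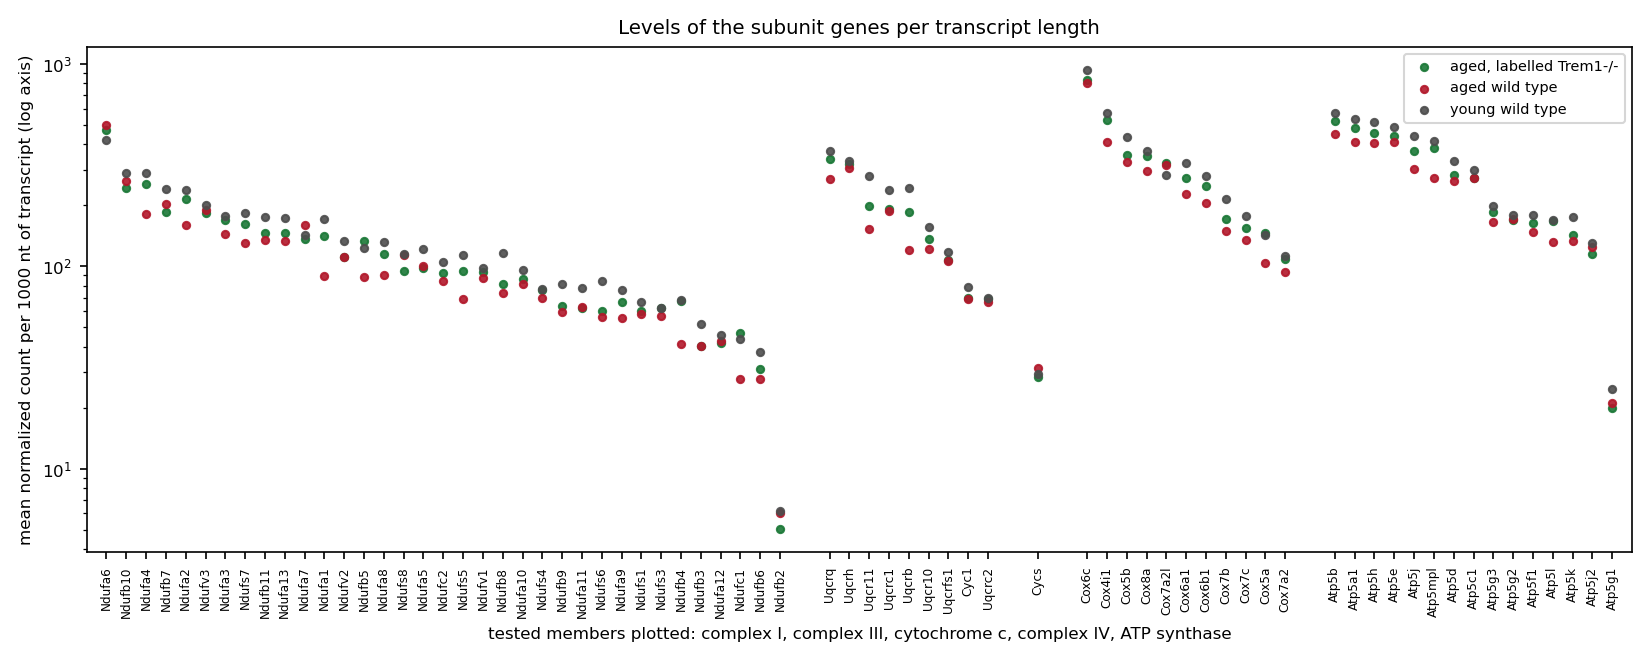
Mean normalized count per 1000 nt of transcript (log axis) of 71 of the 72 tested members with a transcript length (1 is not shown), ordered by level within each complex, for the aged libraries labelled Trem1-/- (n = 3), aged wild type (n = 3) and young wild type (n = 4). Cox6c is highest at 864 over all libraries and Ndufb2 lowest at 5.79; for most genes the aged wild-type point lies below the young wild-type point.

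Aged wild-type macrophages were compared with young wild-type macrophages to ask how these transcripts differ with age. Subunit transcripts of all 4 complexes were lower in aged wild type: 29 of the 73 tested members fell (limma, Benjamini-Hochberg adjusted p under 0.05 over all tested genes), or 39.7%, and 0 rose. Across all 11506 tested genes, 19% were lower and 14.3% were higher by the same rule. At an unadjusted p under 0.05, 37 members were lower and 1 was higher, against 24.2% and 19.5% of all tested genes, and with edgeR and DESeq2 0 members were higher at an adjusted p under 0.05. The estimate was below 0 for 69 of 73 members, with a median log2 fold change of -0.33 (0.793 on the linear scale), against a median of -0.02 over all tested genes. All aged wild-type libraries lay below all young wild-type libraries for 33 of the 73 members (45.2%), against 21.9% of all tested genes.

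The number that fell depended on single libraries, although the median did not change sign in any leave-one-out fit (-0.38 to -0.26). It was 9 without aged wild-type replicate 6 and 15 without replicate 3. Without young wild-type replicate E it was 12, and without replicate C it was 18. It was also 16 when counts were scaled to library totals, 22 with edgeR and 19 with DESeq2. The number of all tested genes that were lower moved too. It was 2190 as reported, and 1637, 1591, 1766 and 1793 without these libraries, in that order. With library totals, edgeR and DESeq2 it was 1848, 1932 and 1925. Whether the members exceeded all genes in each of these fits was not tested. Across all 17 alternative settings, 9 members passed in each: Uqcr11, Uqcrb, Ndufb8, Ndufa1, Ndufs7, Ndufa8, Cox4i1, Atp5a1 and Atp5j. The other 20 each missed the threshold in at least 1 setting. The fewest misses were those of Ndufb4 and Atp5mpl, in 1 of 17, without aged wild-type replicate 6. At the other end, Cox6a1, Ndufa9 and Ndufb5 missed it in 14 of 17, Cox5a in 13, and Atp5d and Ndufb11 in 12.

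**Figure D2:**
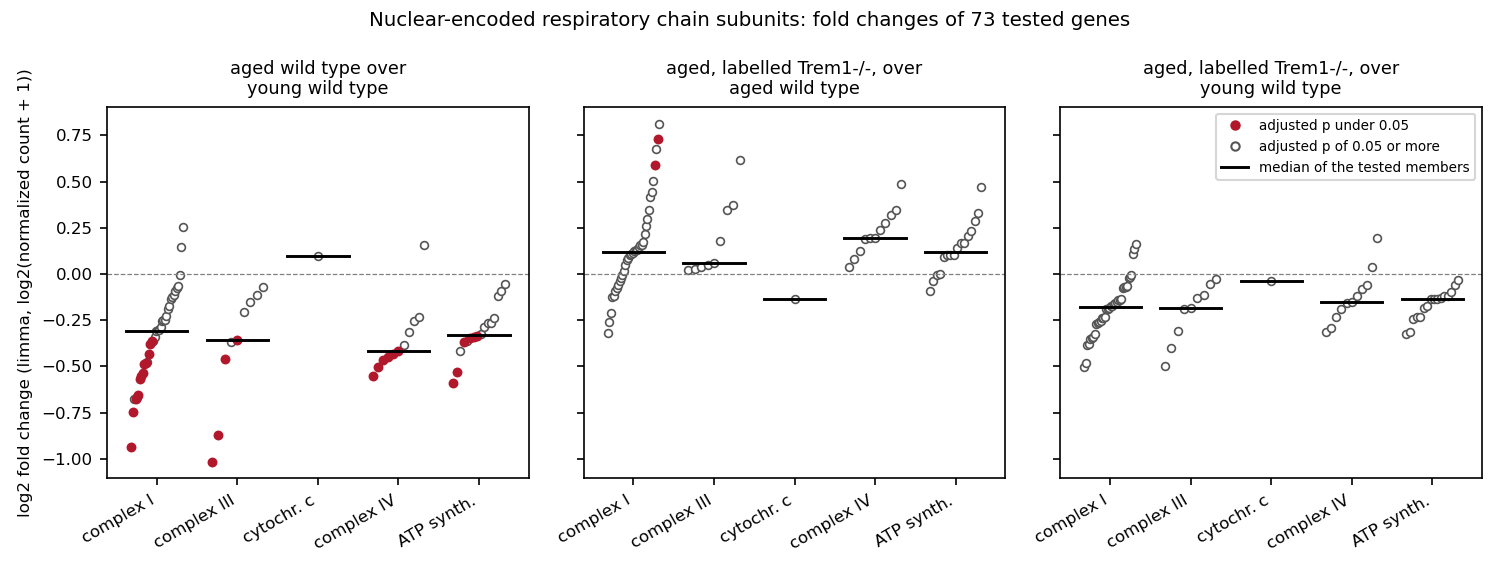
Log2 fold changes of the 73 tested members by complex, for aged wild type over young wild type (left), aged libraries labelled Trem1-/- over aged wild type (middle) and aged libraries labelled Trem1-/- over young wild type (right); filled points passed limma at an adjusted p under 0.05 and black lines are medians. In the left panel 29 members are filled, all below 0; the middle panel has 2, both above 0, and the right panel none.

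Short stretches before the start of 6 member genes are printed here to show the letters of motifs of transcription factors long tied to respiratory genes: NRF1 (GCGCATGC), the ETS family that includes GABPA (CCGGAAGT), YY1 (AAGATGGCG) and ERRA (TCAAGGTCA), each sought on both strands. The sequences are from RefSeq (GRCm38.p6), read 5′ to 3′ on the strand of the gene, with matches in capitals. Uqcr11, Atp5j and Ndufa8 are shown as members that fell in every setting, and Ndufa6, Cycs and Atp5g2 as members that did not pass in limma on the authors' normalized counts; the choice was made after their values were seen.
Uqcr11, chr10:80406835-80406932, minus strand, ETS family: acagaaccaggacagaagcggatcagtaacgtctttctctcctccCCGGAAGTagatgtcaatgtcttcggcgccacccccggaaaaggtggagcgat
Atp5j, chr16:84835011-84835109, minus strand, YY1: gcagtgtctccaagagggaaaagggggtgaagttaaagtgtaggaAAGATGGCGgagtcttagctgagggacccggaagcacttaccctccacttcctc
Ndufa8, chr2:36049339-36049391, minus strand, NRF1: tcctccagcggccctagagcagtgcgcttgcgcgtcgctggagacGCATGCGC
Ndufa6, chr15:82354322-82354419, minus strand, NRF1: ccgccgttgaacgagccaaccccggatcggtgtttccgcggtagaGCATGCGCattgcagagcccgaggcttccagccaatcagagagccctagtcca
Cycs, chr6:50566577-50566674, minus strand, NRF1: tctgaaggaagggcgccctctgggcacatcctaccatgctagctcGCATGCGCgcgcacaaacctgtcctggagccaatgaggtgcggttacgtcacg
Atp5g2, chr15:102671048-102671134, minus strand, NRF1: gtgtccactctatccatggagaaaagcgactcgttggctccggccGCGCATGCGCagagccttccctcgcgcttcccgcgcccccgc

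In windows of 250 bases before to 50 bases after the start, 67 of the 87 members were matched. Atp5o and the row of that name with a suffix were given the same window and were each counted. That window held no match. NRF1 letters occurred in 10 of the 67 (14.9%), against 3.05% of 27025 genes with such a window. YY1 letters occurred in 7 (10.4% against 1.64%), ETS letters in 5 (7.46% against 4.31%) and ERRA letters in 1, Atp5g3 (1.49% against 0.466%). Uqcr11 held both an ETS and an NRF1 match, the NRF1 match reaching its start and lying outside the stretch printed. Any of the 4 was found in 9 of 23 members that fell in aged wild type (39.1%) and in 13 of 38 tested members that did not pass (34.2%). Median GC content was 57.2% in the windows of members and 52.7% in all windows. A match of letters is a description and not a binding site.

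Within complex I, 13 of 36 tested members fell in aged wild type (36.1%, against 19% of all tested genes) and 0 rose. Ndufb8, an accessory subunit of the membrane arm (GRCm38 chr19:44548572-44555440), had 98.6, 104 and 109 normalized counts in aged wild type, against 143, 155, 185 and 175 in young wild type. All aged wild-type values lay below all young ones, with a log2 fold change of -0.66 ± 0.12 (SE; limma adjusted p = 0.00177). Ndufa1, a small membrane subunit needed for assembly of the complex, had 34.6, 50.2 and 27.9 in aged wild type, against 60.1, 64.7, 67.3 and 95.3 in young wild type. Its groups did not overlap either, and its log2 fold change was -0.94 ± 0.22 (adjusted p = 0.0072), the lowest estimate in complex I. Ndufs7, a core subunit that carries an iron-sulfur cluster next to the ubiquinone site, had 110.1, 111 and 119 against 147, 169, 156 and 166 (-0.49 ± 0.12, adjusted p = 0.00913).

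Among the 7 nuclear-encoded core subunits of complex I, which hold the flavin and iron-sulfur centres, Ndufs7 alone fell (1 of 7, or 14.3%). Across all tested genes 19% were lower, and the median log2 fold change of the 7 was -0.19. Estimates for the complex ran to 0.25 ± 0.11 for Ndufa6, with 198, 192 and 183 normalized counts in aged wild type, against 141, 170.0, 167 and 164 in young wild type (limma adjusted p = 0.0834). Ndufa6 was thus the 1 of 73 tested members (1.37%) with every aged wild-type library above every young one. The share of all tested genes apart in this direction was not counted. Scaled to library totals, it passed as higher (log2 fold change 0.32, adjusted p = 0.0359). Whether accessory and core subunits differ was not tested.

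In complex III, 4 of 9 tested members fell in aged wild type (44.4%, against 19% of all tested genes). Uqcr11, a small subunit of the complex (GRCm38 chr10:80402997-80406830), had 55.0, 80.8 and 69.2 normalized counts in aged wild type, against 105, 126, 128 and 139 in young wild type. No aged value reached the lowest young value, and the log2 fold change was -0.87 ± 0.16 (limma adjusted p = 0.00164), the lowest adjusted p among the members. Uqcrb, which binds ubiquinone, had 48.6, 80.8 and 64.7 against 133, 96.7, 147 and 146 (-1.01 ± 0.22, adjusted p = 0.00494), the lowest estimate of all members. For this gene 25.5% of the 50-base stretches of its transcripts also occur in other genes, so its counts are uncertain. Uqcrq, a ubiquinone-binding subunit, had 128, 159 and 119 against 167, 177, 180.1 and 223 (-0.46 ± 0.14, adjusted p = 0.0226). Uqcrc1, a core protein and the most highly counted gene of the complex, had 291, 345 and 290.2 against 372, 387, 366 and 454 (-0.36 ± 0.11, adjusted p = 0.0265). For each of these 4 genes every aged wild-type library was below every young one.

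The nuclear-encoded subunits that carry redox centres of complex III, and cytochrome c itself, did not pass. Cyc1, which encodes cytochrome c1, had 105, 131 and 80.0 normalized counts in aged wild type, against 118, 112, 120.1 and 128 in young wild type. The groups overlapped (log2 fold change -0.21 ± 0.16, adjusted p = 0.361). Uqcrfs1, the Rieske iron-sulfur protein, had an estimate of -0.15 ± 0.14 (adjusted p = 0.454). Cycs had 84.5, 116 and 94.3 against 97.6, 72.0, 93.7 and 103, also overlapping, with an estimate of 0.10 ± 0.16 (adjusted p = 0.68); 26.1% of its 50-base stretches occur in other genes.

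Complex IV had 6 of 11 tested members lower in aged wild type (54.5%, against 19% of all tested genes). Cox4i1, the ubiquitous form of subunit IV, had 299.5, 329.6 and 307 normalized counts in aged wild type, against 395, 409, 450.3 and 472 in young wild type. The groups were fully separated, with a log2 fold change of -0.46 ± 0.11 (limma adjusted p = 0.009). Cox5b, a zinc-binding subunit, had 255, 274 and 202 against 275, 356, 318 and 349, apart by little (-0.42 ± 0.13, adjusted p = 0.0294). Cox5a, subunit Va, had 61.4, 80.8 and 59.3 against 89.8, 76.4, 98.5 and 102 (-0.45 ± 0.15, adjusted p = 0.0421), with aged replicate 4 above young replicate B. The call of Cox5a was lost in 13 of 17 alternative settings. The ubiquitous isoform genes Cox7b, Cox6b1 and Cox6a1 fell by 0.50, 0.43 and 0.55 on the log2 scale, with adjusted p-values of 0.0341, 0.0294 and 0.05. Cox6a1 lies at the threshold: its aged wild-type values of 88.3, 174 and 127 overlap the young values of 160.4, 179, 185 and 212, and it lost its call in 14 of 17 alternative settings.

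Cox6c, the most highly counted gene of complex IV, had 612, 460.5 and 386 normalized counts in aged wild type, against 488, 522, 621 and 631 in young wild type. The groups overlapped, and it did not pass (-0.24 ± 0.15, adjusted p = 0.264). Cox7a2l, which encodes a factor that joins complexes III and IV into supercomplexes, was the only complex IV member with an estimate above 0 (0.16 ± 0.11, adjusted p = 0.284). It had 380.1, 319.7 and 346 in aged wild type, against 275, 312, 335 and 328 in young wild type. Ndufa4, named for complex I but now placed in complex IV, had 69.1, 105 and 76.4 against 111, 118, 128 and 174 and fell by 0.66 ± 0.19 on the log2 scale (adjusted p = 0.0193).

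Of the ATP synthase genes, 6 of 16 tested members fell in aged wild type (37.5%, against 19% of all tested genes). Atp5a1 had 1006, 1132 and 1044 normalized counts in aged wild type, against 1245, 1304, 1437 and 1488 in young wild type. All aged libraries were lower than all young ones, with a log2 fold change of -0.37 ± 0.09 (limma adjusted p = 0.0109). Atp5j, coupling factor 6 of the stalk, had 215, 249 and 212 against 267, 297, 347 and 402 (-0.53 ± 0.14, adjusted p = 0.0121); its exons overlap those of Gabpa, the gene of an ETS factor. Atp5mpl, a small membrane subunit, had 133, 149 and 119 against 173, 187, 222 and 230.1 (-0.59 ± 0.16, adjusted p = 0.0144). Of the 5 subunits of F1, the part that contains the catalytic head, Atp5a1, Atp5b and Atp5d fell. Of these calls, that of Atp5d was lost in 12 of 17 alternative settings and that of Atp5b in 5. Atp5c1 and Atp5e had estimates of -0.12 and -0.24 (adjusted p = 0.404 and 0.184).

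**Figure D3:**
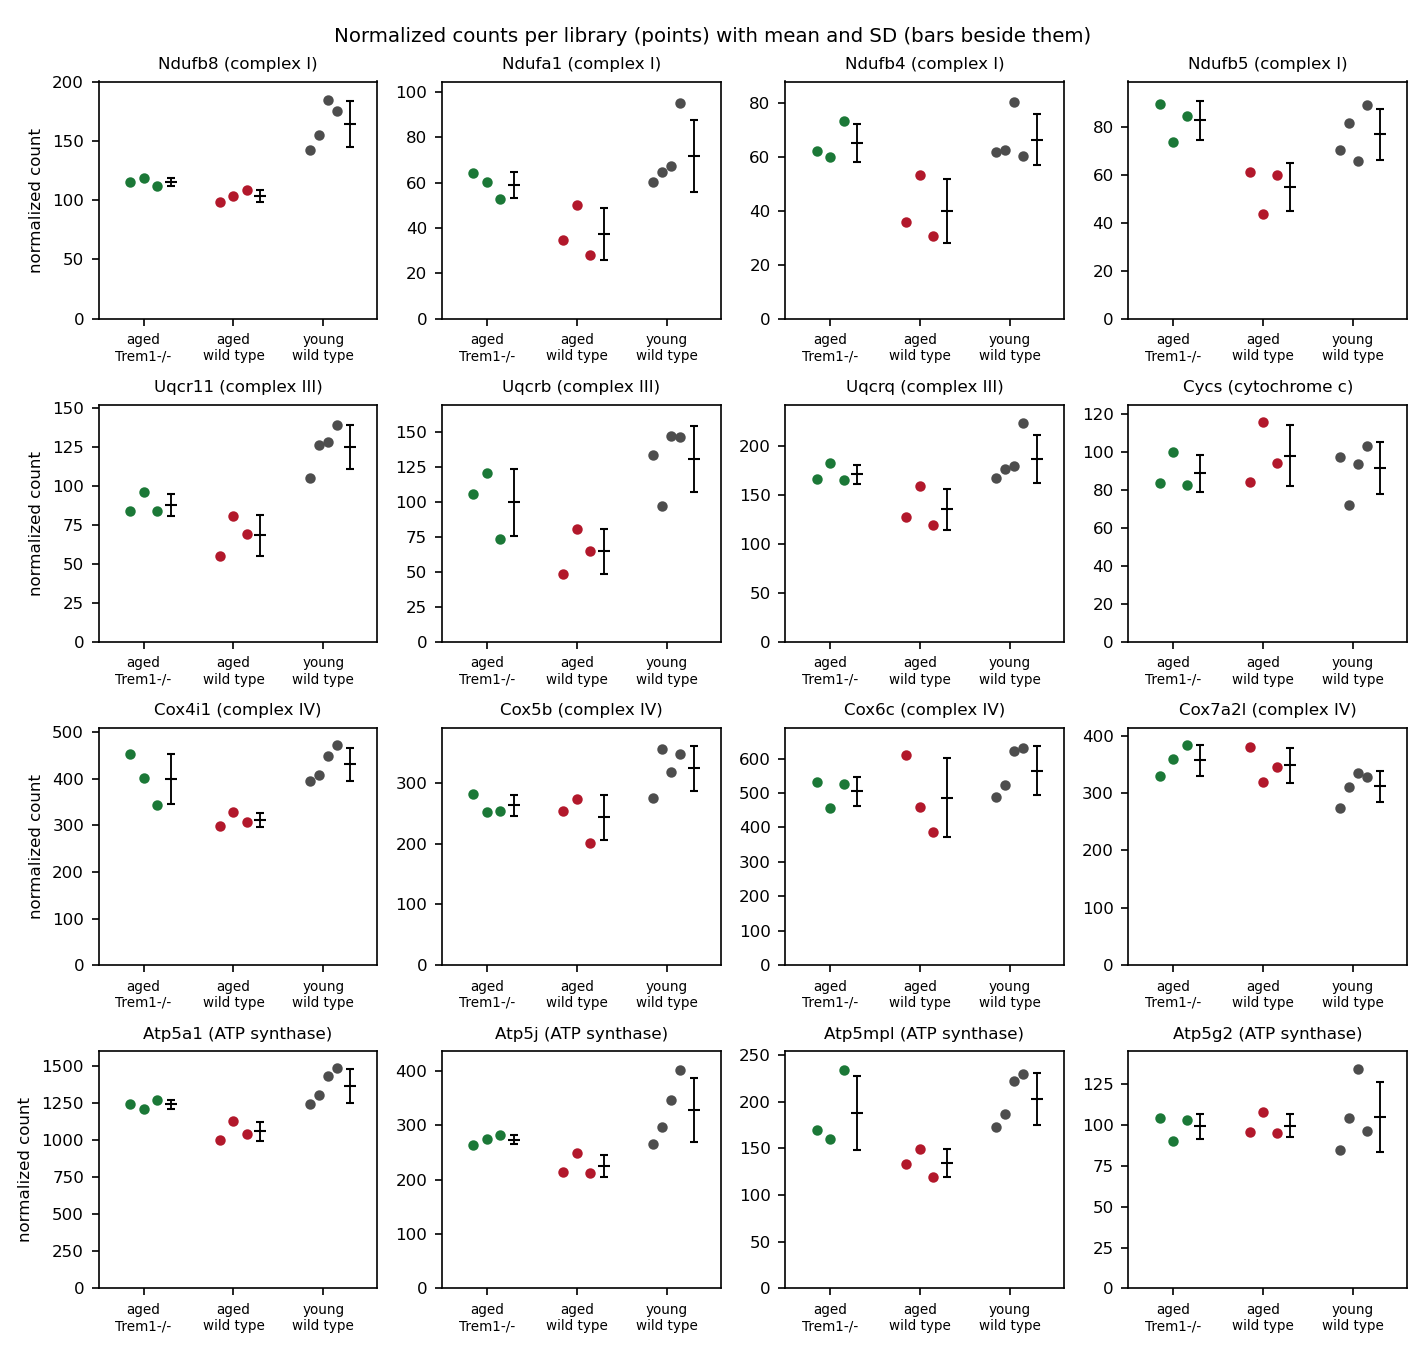
Normalized counts per library of 16 members, with the mean and SD beside the points, for aged libraries labelled Trem1-/- (n = 3), aged wild type (n = 3) and young wild type (n = 4). Ndufb8, Ndufa1, Uqcr11, Cox4i1 and Atp5a1 show aged wild-type points below all young wild-type points, while Cycs, Cox6c and Atp5g2 overlap.

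The muscle, lung, testis or hypoxia-linked isoforms Cox4i2, Cox6a2, Cox6b2, Cox7a1, Cox7b2, Cox8b, Cox8c and Ndufa4l2 had means of 0.0801 to 3.83 normalized counts, and none entered the test; 3 reads are worth 1.85 to 3.84 normalized counts here. Per 1000 nt their means were 0.137 to 8.72, against 106 to 511 for the ubiquitous partners Cox4i1, Cox6a1, Cox6b1, Cox7a2, Cox7b, Cox8a and Ndufa4.

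Values of the partners not yet given follow for all groups. Cox6b1, which faces the intermembrane space, had 134, 116 and 115 normalized counts in the libraries labelled Trem1-/-, 94.7, 110.2 and 95.2 in aged wild type, and 121, 121, 141 and 160.4 in young wild type. Cox7b had 153, 194 and 165, then 136, 152 and 161 in aged wild type, and 172, 183, 237 and 269.6 in young wild type. For both, aged wild type lay wholly below young wild type, and the libraries labelled Trem1-/- overlapped young wild type. For Cox7b they overlapped aged wild type too. Cox8a had 210.5, 196 and 169.8 in the libraries labelled Trem1-/-, 173, 170.2 and 146 in aged wild type, and 178, 203, 199 and 232 in young wild type. Cox7a2 had 79.7, 74.5 and 59.6, then 64.0, 66.6 and 54.8 in aged wild type, and 64.5, 70.8, 72.1 and 89.5 in young wild type. Neither passed in any comparison; for aged over young wild type the adjusted p was 0.0756 for Cox8a and 0.249 for Cox7a2.

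The 3 genes Atp5g1, Atp5g2 and Atp5g3 encode the same mature protein, subunit c of the ATP synthase membrane ring. Per 1000 nt their means over all libraries were 22.2, 174 and 185. Before division by length the means were 59.4, 102 and 133 normalized counts. The lengths used were 2675.5, 586 and 718.5 nt, so the low level of Atp5g1 per 1000 nt depends in part on its longer annotated length. Atp5g3 had 142, 133 and 123 normalized counts in the libraries labelled Trem1-/-, 96.0, 129.9 and 131 in aged wild type, and 142, 118, 149 and 163 in young wild type. Atp5g2 had 104, 90.5 and 103, then 96.0, 108 and 95.2 in aged wild type, and 84.5, 104, 135 and 96.5 in young wild type. Atp5g1 had 56.2, 62.5 and 41.3, then 64.0, 69.8 and 35.0 in aged wild type, and 60.1, 72.0, 60.0 and 73.2 in young wild type. In each of the 3 genes aged and young wild type overlapped, and none passed, with log2 fold changes of -0.27 ± 0.15 for Atp5g3, -0.05 ± 0.16 for Atp5g2 and -0.29 ± 0.24 for Atp5g1. For Atp5g2, 38.3% of the 50-base stretches occur in other genes.

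The aged libraries labelled Trem1-/- were compared with aged wild type, the contrast that bears on the role of Trem1 at old age. Here 2 of 73 tested members rose (2.74%) and 0 fell, against 11.5% of all tested genes higher and 6.82% lower. Both are accessory subunits of the membrane arm of complex I. Ndufb4 had 62.3, 60.1 and 73.4 normalized counts in the libraries labelled Trem1-/-, against 35.8, 53.5 and 30.5 in aged wild type. No value of aged wild type reached the lowest value labelled Trem1-/-, with a log2 fold change of 0.73 ± 0.21 (limma adjusted p = 0.0362). Ndufb5 had 89.9, 73.7 and 84.9 against 61.4, 43.6 and 60.2 (0.59 ± 0.18, adjusted p = 0.0425), likewise without overlap.

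Neither call was stable. The count of members that rose was 0 with edgeR, with DESeq2, with counts scaled to library totals, and with only the groups compared in the fit, and 6 after TMM rescaling. It was also 0 without replicate 1 or 2 labelled Trem1-/-, without aged wild-type replicate 3 or 6, and without young wild-type replicate A or B. Without replicate 3 labelled Trem1-/- neither Ndufb4 nor Ndufb5 passed, and the 2 that rose were Cox4i1 and Uqcrb. Without young replicate C it was 1, Ndufb5 no longer passing, and without aged wild-type replicate 4 it was 8, among them Ndufa1, Uqcrb and Cox5a. Over all tested genes 1327 were higher as reported, 1653 after TMM rescaling and 1785 without aged wild-type replicate 4. With edgeR, DESeq2, library totals and only the groups compared, 1134, 1262, 971 and 724 of all genes were higher. At an unadjusted p under 0.05 in limma, 15 members were higher, against 19.7% of all tested genes, and 0 lower; the count of members that fell was 0 in all settings run. The estimate was above 0 for 58 of 73 members, with a median of 0.13 against 0.02 over all tested genes, and 0.03 after scaling to library totals, which moves the median of all genes by -0.10 in this comparison. All 3 libraries labelled Trem1-/- lay above all 3 of aged wild type for 20 members (27.4%), against 19.4% of all tested genes. With that scaling 48.0% of all calls in this comparison were higher, against 62.8% as reported.

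Members with the lowest p in each complex, besides these 2, did not pass. Uqcrb had 105, 120.2 and 73.4 normalized counts in the libraries labelled Trem1-/-, against 48.6, 80.8 and 64.7 in aged wild type, with overlap (log2 fold change 0.62 ± 0.24, adjusted p = 0.0922). Uqcrq had 167, 183 and 165 against 128, 159 and 119, without overlap (0.35 ± 0.15, adjusted p = 0.119). Cox5a had 97.1, 96.9 and 87.2 against 61.4, 80.8 and 59.3, also apart (0.49 ± 0.16, adjusted p = 0.06). Cox4i1 had 453, 401 and 344 against 299.5, 329.6 and 307 (0.35 ± 0.12, adjusted p = 0.067). Atp5mpl had 169.6, 160.2 and 234 against 133, 149 and 119 (0.47 ± 0.17, adjusted p = 0.0747), and Atp5a1 had 1248, 1214 and 1271 against 1006, 1132 and 1044 (0.23 ± 0.10, adjusted p = 0.125), the groups apart for each of these.

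Other members described above did not pass in this comparison. Ndufb8 had 115, 119 and 112 normalized counts in the libraries labelled Trem1-/-, against 98.6, 104 and 109 in aged wild type (log2 fold change 0.16 ± 0.13). Ndufa1 had 64.4, 60.1 and 52.8 against 34.6, 50.2 and 27.9 (0.68 ± 0.24, adjusted p = 0.0658). Atp5j had 265, 276 and 282 against 215, 249 and 212 (0.29 ± 0.15). In all 3 genes the groups were apart, and none passed. Uqcrc1 had 324, 305 and 326 in the libraries labelled Trem1-/-, against 291, 345 and 290.2 in aged wild type (0.05 ± 0.12). Cyc1 had 119, 107 and 91.8 against 105, 131 and 80.0 (0.03 ± 0.18), and Cycs 83.8, 100.1 and 82.6 against 84.5, 116 and 94.3 (-0.14 ± 0.17). These overlapped, as did Cox6c, with 533, 457 and 527 against 612, 460.5 and 386 (0.08 ± 0.16), and Cox7a2l, with 330.0, 359 and 384 against 380.1, 319.7 and 346 (0.04 ± 0.12). Ndufa4 had 113, 104 and 135 in the libraries labelled Trem1-/-, against 69.1, 105 and 76.4 in aged wild type (0.51 ± 0.20, adjusted p = 0.104), Cox5b 283, 253 and 255 against 255, 274 and 202 (0.12 ± 0.14), and Cox6a1 139, 174 and 157 against 88.3, 174 and 127 (0.32 ± 0.21). The groups overlapped in each of these last 3 genes.

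Set against young wild type, 0 of 73 tested members passed in the aged libraries labelled Trem1-/-, where 0.921% of all tested genes passed in either direction. In limma 6 members were lower at an unadjusted p under 0.05, against 6.62% of all tested genes, and 0 higher; edgeR called 0, and DESeq2 called 1, Ndufb8 (adjusted p = 0.0413). Ndufb8 had 115, 119 and 112 normalized counts in the libraries labelled Trem1-/-, against 143, 155, 185 and 175 in young wild type. The groups did not overlap, with a log2 fold change of -0.50 ± 0.12 (limma adjusted p = 0.0699). Uqcr11 had 83.8, 96.1 and 83.7 against 105, 126, 128 and 139, also apart (-0.50 ± 0.16, adjusted p = 0.162). Estimates were below 0 for 68 of 73 members, with a median of -0.16 against 0.01 over all tested genes.

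Each of the 3 comparisons shares libraries with the others, so their estimates are not independent. Side by side, the median log2 fold changes of the members were -0.31, 0.12 and -0.18 for complex I in the order aged over young wild type, labelled Trem1-/- over aged wild type, and labelled Trem1-/- over young wild type. They were -0.36, 0.06 and -0.18 for complex III, -0.42, 0.20 and -0.15 for complex IV, and -0.33, 0.12 and -0.14 for ATP synthase.

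Summed over all 87 members, normalized counts were 12124, 11850 and 11811 in the libraries labelled Trem1-/-, 10636, 11356 and 10184 in aged wild type, and 11938, 12782, 13745 and 14872 in young wild type. Every aged wild-type sum lay below every other library, and the sums of the libraries labelled Trem1-/- overlapped the lowest young value. As a share of all recovered reads the members took 0.342%, 0.32% and 0.328% in the libraries labelled Trem1-/-, 0.312%, 0.328% and 0.314% in aged wild type, and 0.339%, 0.37%, 0.389% and 0.409% in young wild type. On this scale, which the authors' normalization does not touch, aged wild type still lay below young wild type, and the ranges of both aged groups overlapped. The noncoding RNA gene Gm26917 took 4.999% to 5.68%, 8.38% to 12.9% and 5.06% to 5.70% of reads in the same groups. A larger share for this gene leaves less for the others. Its part in the lower share of the members in aged wild type was not tested.

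Subunits of the same complexes that are encoded in mitochondrial DNA went the other way in aged wild type: 11 of the 13 rose in aged over young wild type and 0 fell, with a median log2 fold change of 1.03. Across all tested genes 14.3% were higher and 19% lower. Their summed normalized counts were 24350, 24143 and 26764 in the libraries labelled Trem1-/-, 34448, 103067 and 38022 in aged wild type, and 22920, 22879, 32844 and 22783 in young wild type. Aged wild-type replicate 4 was far above the others, and it was also the library richest in erythroid markers. Without it 6 of the 13 rose and the median was 0.49. The number that rose was 12 with edgeR and with DESeq2, and 7 with TMM rescaling or only the groups compared. Without young replicates A, B, C and E the count was 3, 4, 7 and 4, and without aged wild-type replicate 3 or 6 it was 12. In the libraries labelled Trem1-/- against aged wild type 5 of 13 fell and 0 rose (median -1.07), against 6.82% of all tested genes lower and 11.5% higher. The number that fell was 12, 9 and 8 with DESeq2, library totals and edgeR, and 0 with only the groups compared in the fit. It was 0 to 7 when 1 library was left out, and 0 without replicate 1 labelled Trem1-/-. The ratio of mitochondrially encoded to nuclear-encoded counts, a quantity to be compared between libraries only, was 2.01, 2.04 and 2.27 in the libraries labelled Trem1-/-, 3.24, 9.08 and 3.73 in aged wild type, and 1.92, 1.79, 2.39 and 1.53 in young wild type. All aged wild-type ratios exceeded those of the other libraries.

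**Figure D4:**
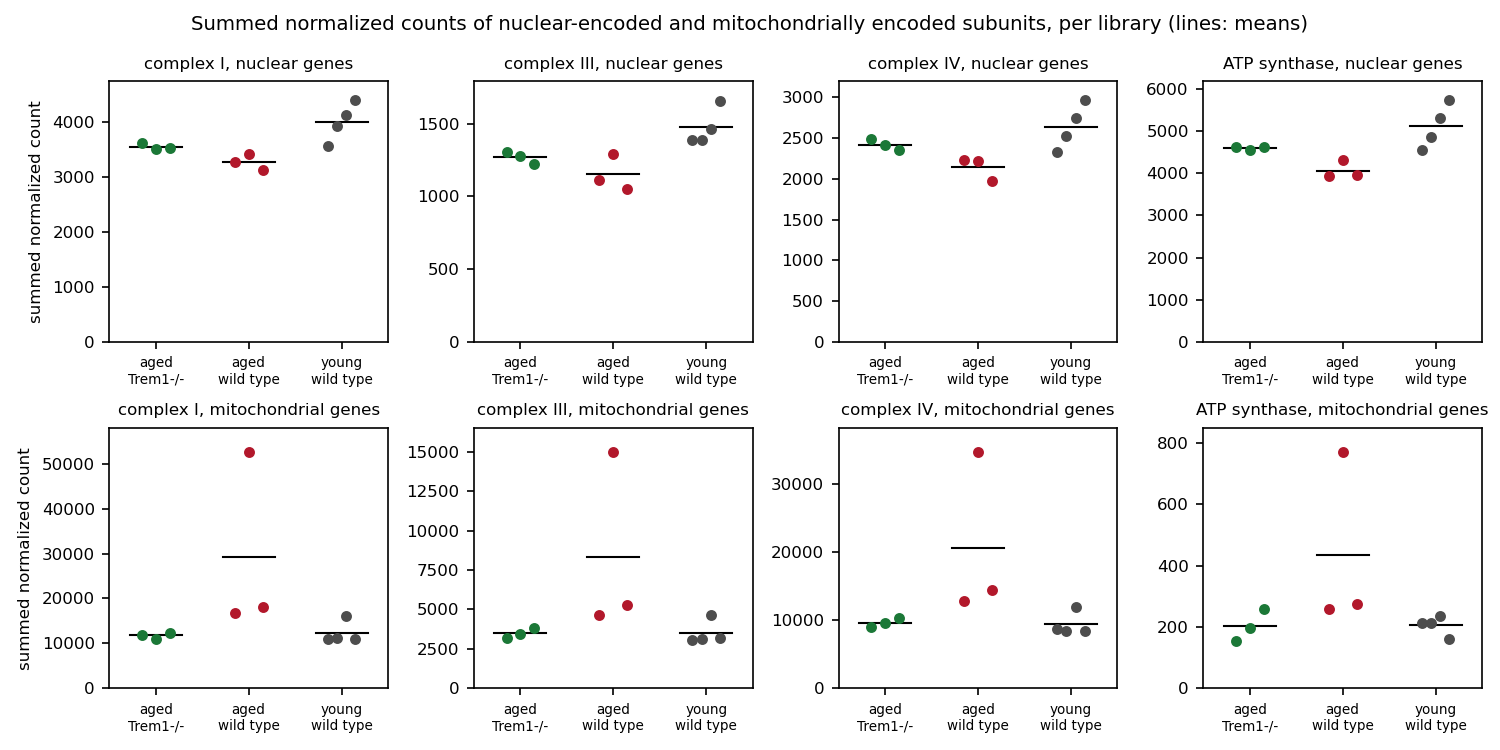
Summed normalized counts per library of nuclear-encoded (top) and mitochondrially encoded (bottom) subunits of complexes I, III, IV and ATP synthase, in aged libraries labelled Trem1-/- (n = 3), aged wild type (n = 3) and young wild type (n = 4), with group means as lines. Nuclear sums of complex I are 3121 to 3419 in aged wild type and 3566 to 4409 in young wild type, while the mitochondrial sums are 16761 to 52586 and 10945 to 16116.

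Other genes of the pathway were counted from lists of complex II, assembly factors, regulators, and carriers or import proteins; 19% of all tested genes were lower in aged wild type and 14.3% higher. The complex II list holds its subunits and its own assembly factors. Of the 7 tested genes of this list 1 fell in aged wild type, Sdhd, a membrane anchor of succinate dehydrogenase (75.5, 97.1 and 80.9 normalized counts against 138, 103, 109 and 144; -0.54 ± 0.15, limma adjusted p = 0.0178). Of 37 tested assembly factors 1 fell, Uqcc2 of complex III (-0.56 ± 0.18, adjusted p = 0.0306), 0 rose, and the list median was 0.10. Of 16 tested regulators of mitochondrial biogenesis 2 rose and 0 fell. They were Gabpb1, a partner of GABPA, with 84.5, 78.6 and 103 normalized counts in aged wild type, against 58.4, 46.8, 56.4 and 52.3 in young wild type (0.72 ± 0.16, adjusted p = 0.00612), and Tfam, which packages mitochondrial DNA (0.49 ± 0.15, adjusted p = 0.0265). Of 23 tested carriers, import and membrane proteins 3 fell, among them Vdac3, an outer membrane channel (-0.77 ± 0.17, adjusted p = 0.00548), and Atpif1, the inhibitor of ATP synthase (-0.81 ± 0.19, adjusted p = 0.00716). In the libraries labelled Trem1-/- against aged wild type, 1 gene of these 4 lists passed, Ucp2, an inner membrane carrier, which was higher by 0.50 on the log2 scale.

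Subunit genes are short, with a median transcript length of 737 nt over the 72 tested members with a length, against 2694 nt over other tested genes. Among genes under 1000 nt, 22 of 49 members (44.9%) and 15.2% of 1146 other genes were lower in aged wild type. Among longer genes the shares were 7 of 23 members (30.4%) and 19.4% of 10204 other genes. Exons of 13 of the 29 members that fell overlap another annotated gene, as do those of 26 of all 72 annotated tested members. Over 20% of the 50-base stretches occur elsewhere for 3 of the 29 (Uqcrb, Ndufa13 and Ndufs5) and for 7 of the 72. Strand-aware counting is not given in the sources used here, so these values are uncertain. In the authors' deposited table of aged against young wild type, 20 of 77 members with an adjusted p-value were lower and 0 were higher at 0.05, against 11.2% of all its genes lower, and all 20 are among the 29.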

How the data were processed

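RNA was sequenced in 10 libraries of 3 groups. Per the submitters' processing notes the build was GRCm38 and the tools DESeq2 1.20.0, featureCounts 1.5.0-p3, STAR and fastp; annotation release and strand setting: not given in the sources used here. The authors deposited 1 column of normalized counts (signal) per library. All values (100%) were whole multiples of 1 number per library within 1e-06, so whole reads were recovered (3 reads are 1.85 to 3.84 normalized counts; floors cover counting error only). The authors also deposited their comparison of aged with young wild type as a log2 fold change, a score (the Wald statistic) and p-values.

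Groups were compared with limma 3.58.1 (trend option) in R 4.3.3 after log2(normalized count + 1), which understates changes of low genes, with all 10 libraries in 1 model of 3 groups, genes with a mean of at least 10 and Benjamini-Hochberg adjustment at 0.05 over 11506 genes. It was checked on simulated data. Alternatives were edgeR 4.0.16 and DESeq2 1.42.0 on recovered reads, TMM rescaling, scaling to library totals, a pseudocount of 5, a minimum mean of 1, only the groups compared, and leaving out each library. edgeR called 3753, 2084 and 80 genes in the 3 comparisons, against 3837, 2112 and 106 with limma. Identifiers, lengths and shared 50-base stretches come from GENCODE M21, and promoter windows from RefSeq.

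The members and all lists were chosen with earlier results of these data known. Values per library are given for the 2 members of each complex with the lowest p in each of the first 2 comparisons, Cyc1, Cycs, tested isoforms and the most highly counted member of each complex; other members named were chosen after their values were seen. A gene under this rule is not reported here.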

Additional observations from a re-analysis of the deposited data

Results flagged for a closer look

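Ndufb4 of complex I was the 1 of 73 tested members checked in which 1 library lay far from the rest of its group of 4. Young wild-type replicate C had 80.5 normalized counts, and the other young libraries had 60.4 to 62.8. The gap was 0.881 of the range of the group, and chance flags about 1 in 20 groups. Without replicate C the count of members that fell in aged over young wild type was 18. Over all tested genes 1793 were lower in that fit, against 2190 with replicate C.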

How the results depend on the processing

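In aged over young wild type 29 members were lower, 16 with scaling to library totals and 19 with DESeq2. Leaving out 1 library gave 9 to 26 (9 to 25 of them among the 29). Over all tested genes 2190 were lower, and 1591 to 2417 when 1 library was left out. With scaling to library totals 1 member, Ndufa6, was higher. For the libraries labelled Trem1-/- over aged wild type, 2 members were higher, 6 with TMM rescaling, 1 with a minimum mean of 1, and 0 with library totals, only the groups compared, edgeR or DESeq2; leaving out 1 library gave 0 to 8, and the median of 0.129 was 0.028 with library totals. Over all tested genes 1327 were higher in this comparison, 1653 with TMM rescaling and 762 to 1785 when 1 library was left out. Against young wild type 0 members were lower in the libraries labelled Trem1-/-, and 1 with DESeq2. The causes were not tested. Library totals moved the share of higher calls over all genes to 48.0% (62.8% as reported) for labelled Trem1-/- over aged wild type and to 50.5% (64.2%) over young wild type. Over the 31 calls of single members (29 and 2), 359 of 527 values under alternatives kept the call, 168 lost it and 0 changed sign. No paired analysis was possible because the groups share fewer than 2 replicate numbers. At these depths, members under 10 normalized counts were not tested.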
